A study of Mus musculus with 2 samples.

Results

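The amino acid stress response genes described here are 8 genes, Asns, Atf4, Atf5, Ddit3, Trib3, Chac1, Psat1 and Phgdh, of the 31053 genes in the count matrices. They were chosen by symbol, as a well known target of the transcription factor ATF4 that stood out in pachytene cells labelled Zfp541-/- (Asns) together with the factors and targets known to move with it. The high level of Asns in those cells was part of that choice, so its pachytene ratios are given as a description. The question was whether Asns was high there by itself or together with the rest of the ATF4 program. All 8 symbols were found in the files, each as 1 gene.

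The data are single-cell RNA-seq of testicular germ cells from adult C57BL/6 mice, 1 library of the genotype Zfp541-/- and 1 library of the genotype WT. The product of Zfp541 is a protein with zinc fingers found in male germ cells. The protocol names a flow cytometry sort for tetraploid cells, the spermatocytes that have copied their DNA but not yet divided, whereas the sample titles speak of whole testis. The labels name neither the part of Zfp541 that was deleted nor the number of mice, so each genotype is 1 library with no replicate check, and no test or p-value can be given.

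Cells that lack an amino acid accumulate uncharged tRNA, which switches on the kinase GCN2 (Eif2ak4). GCN2 phosphorylates the translation factor eIF2alpha, general protein synthesis slows, and the mRNA of Atf4 is translated more. ATF4 then switches on genes for amino acid synthesis, uptake and tRNA charging. Because that switch works on translation, the level of Atf4 mRNA is not a measure of ATF4 protein. In the testis, pachytene is the long stage of meiotic prophase in which paired chromosomes recombine and the genes of later sperm development begin to be transcribed.

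In the library labelled Zfp541-/-, 8833 cells were annotated, with medians of 10905 unique molecular identifiers (UMIs, counted mRNA molecules) and 3607 genes per cell. In the WT library 8420 cells were annotated, with medians of 11246 UMIs and 3190 genes. The authors' cell table names 15 stages. Only early, mid and late pachytene (eP, mP and lP) had at least 50 cells in both libraries. The library labelled Zfp541-/- was the deeper at these stages: the median mP cell had 18665 UMIs there and 7945 UMIs in WT, and the median lP cell 23690 UMIs there and 9210 UMIs in WT. Zfp541 itself, read as a check of the labels, had 81.9 CPM (counts per 1000000 UMIs) in mP and 70.6 CPM in lP of the library labelled Zfp541-/-, against 28.1 and 35.8 CPM in WT. It was thus higher, not lower, under the knockout label, and since a 3′ tag outside the deleted part checks nothing, the label stays unchecked. Cells of that library are called knockout-labelled below. The library files shared 42 cell barcodes, 17 of them annotated in both, and every ratio of mP and lP was also computed without those cells.

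The 2 eP clusters, numbers 12 and 16, are compared cluster by cluster, because the 10 genes of highest fold in each included a spermatogonium marker, Sohlh2, and 0 markers of pachytene. The mP and lP clusters had 0 markers of either kind there. The pachytene marker list as a whole summed to 11515 CPM in knockout-labelled mP and 12608 CPM in WT mP, and to 12967 CPM in knockout-labelled lP and 13618 CPM in WT lP. Markers of neighbouring stages differed more. The leptotene-zygotene list summed to 3780 CPM in knockout-labelled mP and 2516 CPM in WT mP, and to 3064 CPM in knockout-labelled lP and 1558 CPM in WT lP. The diplotene and meiotic division list summed to 138.7 CPM in knockout-labelled mP and 252.9 CPM in WT mP, an order that reverses per cell, and to 129.6 CPM in knockout-labelled lP and 330.9 CPM in WT lP. Cells of the same stage name thus differed in these markers between the libraries, and the part of this in the ratios below was not tested.

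Asns encodes asparagine synthetase, which makes asparagine from aspartate and glutamine. The gene, ENSMUSG00000029752, lies on chromosome 6 from 7675169 to 7693254 on the minus strand of GRCm38. In knockout-labelled cells its level was 56.1 CPM (95% interval 49.7 to 63.2) in cluster 12, 89.6 CPM (80.3 to 99.8) in cluster 16, 17.5 CPM (16.3 to 18.7) in mP and 9.20 CPM (8.35 to 10.1) in lP. In WT cells it was 3.35 CPM in cluster 12 and 1.66 CPM in cluster 16, each from a single UMI, 1.23 CPM (0.638 to 2.16) in mP and 0.376 CPM (0.0775 to 1.10) in lP. The counting intervals of the libraries did not overlap in any of the 4 comparisons. Intervals here and below are exact Poisson intervals for a level and exact conditional binomial intervals for a ratio. They cover counting error only, not variation between mice or library preparations.

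The log2 ratio of knockout-labelled to WT cells for Asns was 3.48 (1.58 to 9.37) in cluster 12, 5.17 (3.26 to 11.06) in cluster 16, 3.76 (3.01 to 4.78) in mP and 4.39 (3.06 to 6.90) in lP. These are folds of 11.2, 36.0, 13.6 and 21.0, with 0.5 counts added to each sum, which pulls ratios of low genes towards 0. The upper bounds in the eP clusters are wide because WT had 1 UMI there. Among all genes that reached 10 CPM in either library, the median log2 ratio was 0.10 in cluster 12, 0.28 in cluster 16, 0.15 in mP and 0.11 in lP, and the 95th percentile was 1.87, 2.08, 2.50 and 3.26. Asns lay above the 95th percentile in all 4.

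The other 7 genes did not share this pattern as a group. Of the 8, those reaching 10 CPM in the higher library were Asns, Atf4 and Ddit3 in cluster 12, cluster 16 and mP, and Atf4 and Ddit3 in lP, where Asns was just short at 9.20 CPM. With that minimum, 1 of 3 tested members was at least 2-fold higher in knockout-labelled cells in cluster 12 (14.4% of all tested genes), 1 of 3 in cluster 16 (20.4%), 1 of 3 in mP (15.0%) and 0 of 2 in lP (17.4%). The gene counted was Asns each time. Its high level in these cells was part of the choice of genes, and it reached 10 CPM only in knockout-labelled cells. The counts of higher members thus follow from the choice and are no result about the group. No member was at least 2-fold lower, against 8.77% of tested genes in cluster 12, 8.70% in cluster 16, 10.6% in mP and 14.3% in lP. Members that miss 10 CPM in both libraries enter none of these counts. The 4 comparisons use the same libraries and are not independent of each other.

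**Figure D1:**
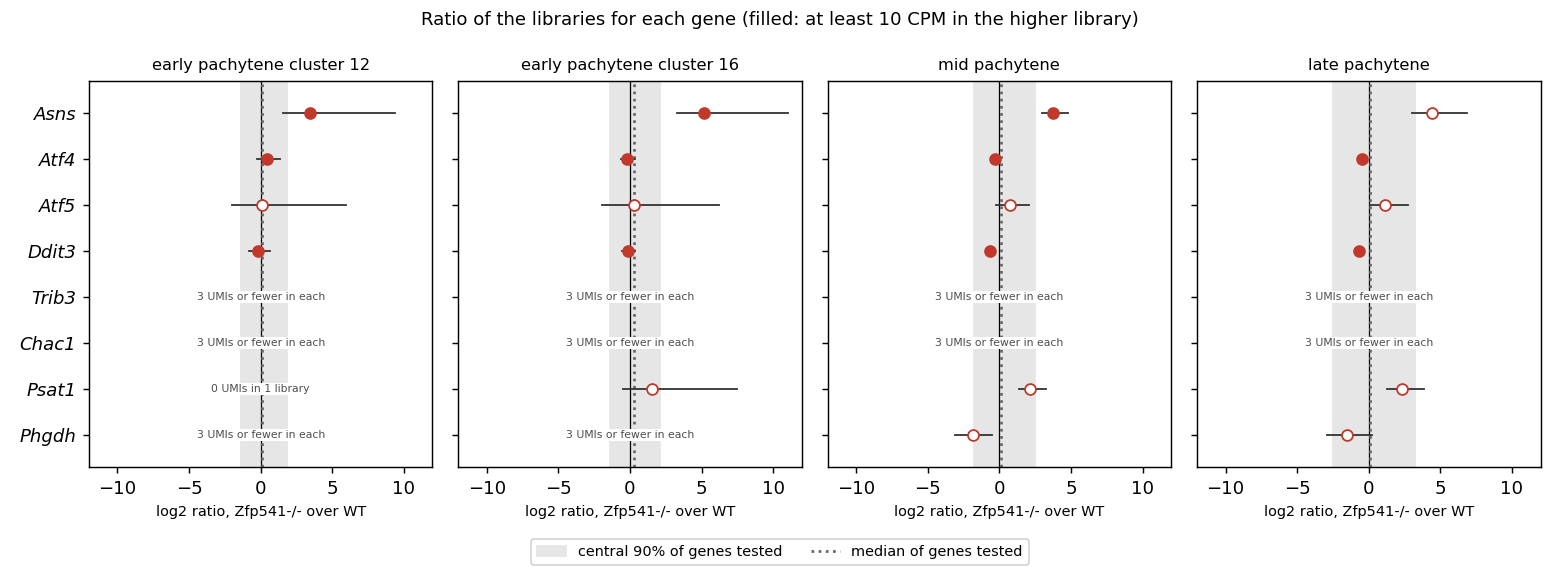
Log2 ratio of the knockout-labelled to the WT library (horizontal axis) for each of the 8 genes in early pachytene clusters 12 and 16, mid and late pachytene. Lines are 95% counting intervals, filled points reach 10 CPM in either library, the grey band holds the central 90% of all tested genes, and genes with 3 UMIs or fewer in each library or 0 UMIs in 1 library have no point. Asns lies between 3.48 and 5.17 in all panels, and Psat1 at 2.17 and 2.30 in mid and late pachytene. Atf4 (-0.28 and -0.45) and Ddit3 (-0.63 and -0.68) lie below 0 there, a direction that reverses when UMIs are counted per cell.

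Atf4, the basic leucine zipper (bZIP) factor at the centre of the program, differed by less than 2-fold between the libraries. It lies on chromosome 15 from 80255184 to 80257541 on the plus strand. It had 70.8 CPM in knockout-labelled cluster 12 against 50.3 CPM in WT, and 64.0 CPM in knockout-labelled cluster 16 against 71.6 CPM in WT. The intervals of both log2 ratios, -0.25 to 1.35 and -0.64 to 0.34, include 0. In mP it had 67.4 CPM in knockout-labelled cells and 81.9 CPM in WT, and in lP 48.8 CPM in knockout-labelled cells and 66.8 CPM in WT. The log2 ratios were -0.28 (-0.39 to -0.17) and -0.45 (-0.59 to -0.31), lower relative to total UMIs but higher per cell, at 0.99 in mP and 0.87 in lP, since the knockout-labelled cells were deeper.

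Ddit3, on chromosome 10 from 127290774 to 127296288 on the plus strand, encodes CHOP, a bZIP factor induced by ATF4 under lasting stress. Its levels in knockout-labelled and WT cells were 54.9 and 60.3 CPM in cluster 12, 70.6 and 76.5 CPM in cluster 16, 104.9 and 161.7 CPM in mP, and 124.3 and 199.8 CPM in lP. The log2 ratio was -0.63 (-0.71 to -0.54) in mP and -0.68 (-0.76 to -0.60) in lP, again lower relative to total UMIs and higher per cell, at 0.65 and 0.64. The intervals in both eP clusters include 0. Ddit3 overlaps Mars, a gene of the opposite strand, and a further annotated gene of the same name; the counting strand is not stated in the sources, so its level may include reads of a neighbour.

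Atf5, on chromosome 7 from 44812256 to 44816658 on the minus strand, encodes a bZIP factor under similar translational control. It was low in pachytene and overlaps Nup62 and Il4i1 of the opposite strand. It had 1.43 CPM in knockout-labelled mP against 0.823 CPM in WT, and 1.81 CPM in knockout-labelled lP against 0.752 CPM in WT. The log2 ratio of 0.72 in mP has an interval that includes 0 (-0.26 to 2.07), and that of 1.16 in lP narrowly leaves it out (0.09 to 2.76). The WT values rest on 8 UMIs in mP and 6 UMIs in lP.

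Trib3 and Chac1, which are among the most responsive ATF4 targets in stressed cell lines, were all but absent. Trib3 encodes a pseudokinase that feeds back on ATF4, and Chac1 an enzyme that breaks down glutathione. They lie on chromosome 2, Trib3 from 152337422 to 152344032 on the minus strand and Chac1 from 119351229 to 119354381 on the plus strand. Trib3 had 1 UMI in knockout-labelled cluster 12 and 0 in cluster 16, mP and lP, against 1 UMI in WT mP and 0 elsewhere in WT pachytene. Chac1 had 0 UMIs in all 4 comparisons in both libraries. A count of 0, read as up to 3 counts, allows up to 0.0615 CPM in knockout-labelled mP against 0.309 CPM in WT mP, and up to 0.0640 CPM in knockout-labelled lP against 0.376 CPM in WT lP.

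Serine synthesis was the other metabolic branch. Phgdh encodes the enzyme of the first committed step, phosphoglycerate dehydrogenase, and Psat1 the aminotransferase of the next step. Psat1 had 5.33 CPM (260 UMIs) in knockout-labelled mP against 1.13 CPM (11 UMIs) in WT, and 3.99 CPM (187 UMIs) in knockout-labelled lP against 0.752 CPM (6 UMIs) in WT. The log2 ratios were 2.17 (1.37 to 3.26) and 2.30 (1.26 to 3.87), folds of 4.51 and 4.91, at a level too low to count at 10 CPM. In cluster 16 Psat1 had 27 UMIs in knockout-labelled cells and 1 UMI in WT, and the interval of the ratio includes 0 (-0.48 to 7.47). In cluster 12 it had 36 UMIs, or 7.43 CPM, in knockout-labelled cells and 0 UMIs in WT, where a count of 0 allows 10.1 CPM, so no fold can be given.

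Psat1 lies on chromosome 19 from 15904678 to 15947337, and Phgdh, which has a named pseudogene copy, on chromosome 3 from 98313170 to 98339990, both on the minus strand. Phgdh was nearly absent. It had 0.287 CPM (14 UMIs) in knockout-labelled mP against 1.03 CPM (10 UMIs) in WT, and 0.277 CPM (13 UMIs) in knockout-labelled lP against 0.752 CPM (6 UMIs) in WT. The log2 ratio was -1.86 (-3.12 to -0.51) in mP and -1.50 (-2.93 to 0.24) in lP. Asns and Psat1 were thus higher in knockout-labelled mP and lP while Phgdh, which precedes Psat1 in the pathway, was not.

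Without a minimum level, 2 of the 7 members with a UMI were at least 2-fold higher in mP (Asns and Psat1), against 17.0% of all genes with a UMI, and 2 were at least 2-fold lower (Trib3, from 1 WT UMI, and Phgdh), against 27.1%. In lP 3 of 6 were higher (Asns, Atf5 and Psat1), against 18.1% of all genes, and 1 lower (Phgdh), against 28.1%. Asns, whose high level was part of the choice of genes, is in each count of higher members.

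Within mP and lP the height of Asns differed between clusters. In knockout-labelled mP it was 32.1 CPM (28.6 to 36.0) in cluster 4, 15.4 CPM in cluster 11, 14.3 CPM in cluster 2 and 13.0 CPM in cluster 7, and the intervals of the last 3 overlap. In WT mP it was 1.47 CPM in cluster 4, 0 in cluster 11, 1.22 CPM in cluster 2 and 2.05 CPM in cluster 7. In lP the values were 10.7 CPM in cluster 5, 8.25 CPM in cluster 0 and 2.99 CPM in cluster 22 in knockout-labelled cells, and 0, 0.415 and 0.466 CPM in the same clusters in WT. Asns was the higher in knockout-labelled cells of all 7 clusters, although in cluster 22 the intervals (1.10 to 6.50 and 0.0118 to 2.60) overlap.

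Along the authors' pseudotime, an ordering of pachytene cells that was divided into 10 bins of equal width, Asns was highest at the start in knockout-labelled cells. Its level was 64.7 CPM in the first bin and 57.2 CPM in the next, then 22.2, 15.0, 13.6, 12.3, 9.38, 10.9, 5.80 and 5.27 CPM, the last from 29 cells. In WT cells no bin exceeded 3.81 CPM, and the bins held 0 to 3 Asns UMIs each. Psat1 declined less, with 7.02 CPM in the first bin and 2.63 CPM in the last in knockout-labelled cells. Ddit3 was higher late in the order in both libraries, with 58.9 CPM in the first bin and 152.7 CPM in the last in knockout-labelled cells, and 64.7 and 203.9 CPM in WT. Atf4 was at most 82.7 CPM in knockout-labelled cells, in the third bin, and 88.7 CPM in WT, in the fourth bin, and lower after that in both.

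**Figure D2:**
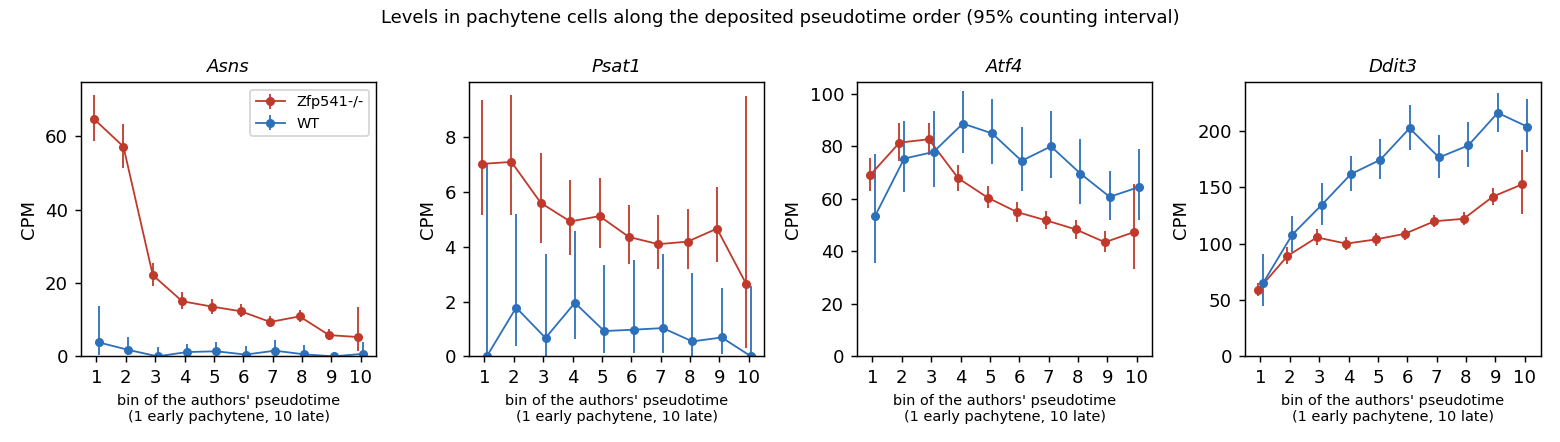
Level in CPM (vertical axis) of Asns, Psat1, Atf4 and Ddit3 in 10 bins of the authors' pseudotime over pachytene cells (horizontal axis), in knockout-labelled (red) and WT cells (blue), with 95% counting intervals. Asns in knockout-labelled cells is highest in the first bin, at 64.7 CPM, and lies above the WT level in every bin, with overlapping intervals in the last. The intervals of Atf4 and Ddit3 overlap between the libraries in the first bin and in the last. From bin 4 (Atf4) and bin 3 (Ddit3) to bin 9, knockout-labelled cells are lower without overlap, relative to total UMIs.

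More cells held an Asns UMI in the library labelled Zfp541-/-, also at equal depth. To compare cells of equal depth, each was thinned to 4224 UMIs and shallower cells were left out, 6 knockout-labelled and 61 WT cells in mP, 1 and 3 cells in lP. A UMI was then found in 7.25% (6.27 to 8.34%) of knockout-labelled mP cells and 0.262% (0.0540 to 0.763%) of WT mP cells, against 27.5% and 0.994% before thinning. In lP it was 3.60% of knockout-labelled and 0.243% of WT cells, against 18.9% and 0.363% before thinning. For comparison, 0.179% (0.0488 to 0.458%) of WT cells in diplotene (D), whose median depth was 11251 UMIs, held an Asns UMI after thinning. The WT shares in mP and lP lie within that range. D is itself a germ cell stage, so background and low expression cannot be told apart, and these shares are not read as expression. Knockout-labelled cells in L and Z had a UMI in 3.39% (2 of 59 cells) and 2.63% (4 of 152 cells), with intervals of 0.413 to 11.7% and 0.722 to 6.60%. The interval of L includes the knockout-labelled shares in mP and lP.

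In the eP clusters the thinned shares were 20.6% of knockout-labelled cells in cluster 12 and 28.6% in cluster 16, against 29.5% and 50.1% before thinning. Of WT cells, only 26 in cluster 12 and 42 in cluster 16 were deep enough to keep, with 1 cell each that held a UMI. Median depth was 5900 UMIs in knockout-labelled cells of cluster 12 against 2682 UMIs in WT, and 7818 UMIs in those of cluster 16 against 3393 UMIs in WT.

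Other members were also read in single knockout-labelled cells with and without an Asns UMI. After thinning, 27.5% (22.1 to 33.5%) of the 251 eP cells with an Asns UMI also had an Atf4 UMI, against 21.3% of the eP cells without one. In mP the order was the other way, with 20.4% (14.8 to 27.1%) of 181 cells with Asns against 24.8% of those without. Ddit3 was found in 38.1% of mP cells with Asns and 36.3% of those without. Psat1 was found in 5.52% (2.68 to 9.93%) of mP cells with Asns, from 10 cells, and 2.07% of those without. In eP these shares were 3.59% (1.65 to 6.70%) and 2.37%. In lP the order was the other way, with 1.43%, from 1 cell, and 1.76%. Trib3 and Chac1 were found in none of these cells. These are cells of 1 library, so the shares are descriptions without a test.

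Across development each gene had its own course. Asns had 3 separate peaks. In the library labelled Zfp541-/- it had 21.6, 34.9 and 45.1 CPM in the 3 stages of differentiated spermatogonia (Diff.Spg1 to Diff.Spg3), 20.9 CPM in preleptotene, 8.36 CPM in leptotene (L) and 5.22 CPM in zygotene (Z), before 70.7 CPM in eP. Relative to Z, eP was higher by a log2 ratio of 3.71 (2.98 to 4.68), a fold of 13.1 within that library, and lP was lower than eP by a log2 ratio of -2.94 (-3.12 to -2.76). L and Z thus formed a low point between the spermatogonial stages and eP.

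WT spermatogonia, though few, also held Asns. With 8, 28 and 39 cells in the 3 spermatogonial stages, WT had 1, 3 and 2 Asns UMIs, then 1 UMI in 12 preleptotene cells and 0 in L (11 cells) and Z (24 cells). These counts are too small for a comparison. In WT the level stayed at or below 2.22 CPM through eP, mP, lP, D, the first meiotic division (MI) and RS.1, was 6.12 CPM in RS.2, and reached 172.5 CPM (163.4 to 182.0) in RS.3, the last of 3 round spermatid stages, and 70.6 CPM (53.9 to 90.9) in elongated spermatids (ES). RS.3 was higher than RS.2 by a log2 ratio of 4.80 (4.43 to 5.23), a fold of 28.0. The library labelled Zfp541-/- had no cells in the spermatid stages, so the late WT peak has no counterpart there.

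Phgdh and Psat1 were genes of spermatogonia. In the library labelled Zfp541-/- Phgdh had 109.5, 77.9 and 42.1 CPM in Diff.Spg1 to Diff.Spg3, 3.30 CPM in preleptotene and at most 0.803 CPM from L on. Psat1 had 40.9, 84.8 and 72.2 CPM in the spermatogonial stages and 33.0 CPM in preleptotene, then 3.52 CPM in L, 3.21 CPM in Z and 7.34 CPM in eP. L was lower than Diff.Spg3 by log2 ratios of -6.00 (-11.90 to -4.08) for Phgdh and -4.27 (-5.59 to -3.35) for Psat1, and eP was above Z for Psat1 by 1.12 (0.13 to 2.47).

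Atf4, Atf5 and Ddit3 differed from the synthesis enzymes. Atf4 stood between 47.9 and 110.9 CPM in all knockout-labelled stages from spermatogonia to lP and was lower in eP than in Z by a log2 ratio of -0.54 (-0.75 to -0.31), where Asns was higher. In WT it declined after pachytene, with 42.5 CPM in D, 26.0 CPM in MI and 9.02 CPM in RS.2. Ddit3 in WT was highest in MI at 312.8 CPM, a log2 ratio of 0.95 (0.88 to 1.03) over mP. In knockout-labelled cells it was 15.0 CPM in Diff.Spg1 and reached 124.3 CPM in lP, their last stage with at least 50 cells. Atf5 was highest in Z (16.9 CPM) and L (16.3 CPM) among knockout-labelled stages and in RS.3 (13.6 CPM) among WT stages.

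Trib3 and Chac1 were detected elsewhere. Trib3 had 9 UMIs, or 4.23 CPM, in Diff.Spg1 of the library labelled Zfp541-/-. Chac1 had 27 UMIs (4.30 CPM) in RS.1 and 44 UMIs (4.72 CPM) in RS.2 of WT. Both genes can thus be read in these libraries, at other stages than pachytene.

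**Figure D3:**
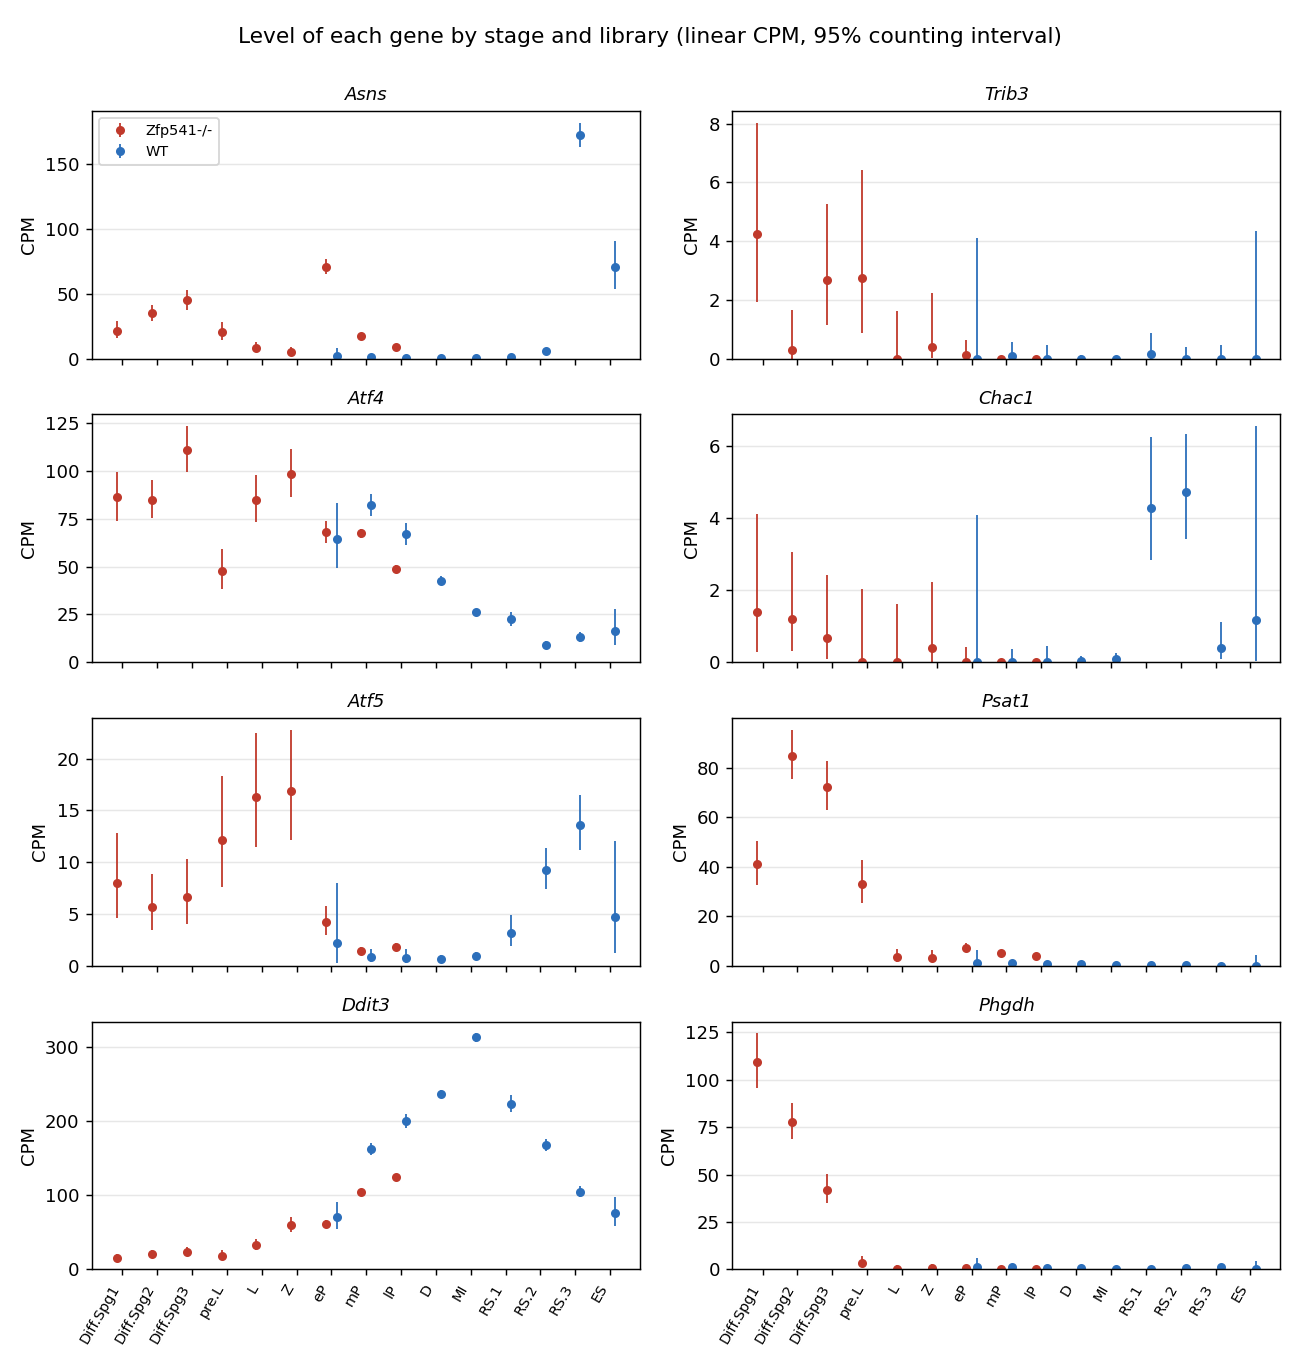
Level in CPM (vertical axis, linear, a separate scale for each gene) of the 8 genes by stage (horizontal axis) in the knockout-labelled (red) and WT library (blue), for stages with at least 50 cells in that library, with 95% counting intervals. Asns is high in knockout-labelled early pachytene at 70.7 CPM and in the WT spermatid stage RS.3 at 172.5 CPM, Phgdh and Psat1 in spermatogonia, and Ddit3 in the WT meiotic division at 312.8 CPM.

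No other member followed Asns closely over the stages, although Atf5 was also highest in RS.3 among WT stages. Over the 18 combinations of stage and library with at least 50 cells, the Pearson correlation of log2(CPM + 1) with Asns was 0.58 for Atf5, 0.41 for Psat1, 0.33 for Phgdh, 0.30 for Trib3, 0.07 for Chac1, -0.08 for Atf4 and -0.60 for Ddit3. The points share 2 libraries and are a description only. The 5 of 12034 genes most like Asns were 4931428F04Rik (0.88), Isg20l2 (0.86), Atl3 (0.86), Zfp704 (0.85) and Itsn2 (0.85). None of the 5 is in the lists described below. Their levels in WT RS.3 were between 21.2 CPM (Zfp704) and 341.6 CPM (Itsn2). In mP, Isg20l2 was nearly equal, with 15.4 CPM in knockout-labelled cells and 14.1 CPM in WT. In the same order, 4931428F04Rik had 3.59 and 0.617 CPM, Atl3 13.9 and 3.91 CPM, Zfp704 9.94 and 0.103 CPM, and Itsn2 17.9 and 2.06 CPM.

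The markers of other cells differed between the libraries at these stages. The 10 spermatogonium markers summed to 243.3 CPM in knockout-labelled cluster 12 against 70.4 CPM in WT, 160.5 CPM in knockout-labelled cluster 16 against 93.2 CPM in WT, 43.0 CPM in knockout-labelled mP against 25.1 CPM in WT, and 51.7 CPM in knockout-labelled lP against 11.0 CPM in WT. The part of spermatogonial RNA in the levels of Asns, Psat1 and Phgdh was not tested. The 3 knockout-labelled spermatogonial stages held 298 Asns, 587 Psat1 and 620 Phgdh UMIs, or 0.481 Asns UMIs per Phgdh UMI. In knockout-labelled mP there were 852 Asns, 260 Psat1 and 14 Phgdh UMIs, or 60.9 Asns UMIs per Phgdh UMI, and in lP 33.2.

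Spermatid RNA moved the other way. The 10 elongating spermatid markers summed to 1.37 CPM in knockout-labelled mP, with Prm1, Prm2, Prm3, Tnp1, Tnp2, Akap4 and Smcp at 0, against 307.5 CPM in WT mP with all 10 present, and to 1.30 CPM in knockout-labelled lP against 243.9 CPM in WT. In the eP clusters they summed to 2.27 and 3.21 CPM in knockout-labelled cells, against 415.5 and 1083 CPM in WT. WT spermatids hold Asns, and WT pachytene cells had 1.23 CPM in mP and 0.376 CPM in lP. The marker lists of Sertoli, Leydig, peritubular and endothelial cells, macrophages and red cells each summed to at most 8.02 CPM in every comparison and library. The part of the depth gap in these results was not tested. In mP cells between the median depths of the libraries the log2 ratio of Asns was 4.00.

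The promoters of the 8 genes were searched for TGATGNAA, the letters of the composite element that ATF4 binds with a C/EBP partner, on either strand. The windows are those of RefSeq on GRCm38.p6, 250 bases before to 50 after each start, and all 8 genes matched. The element was found in 3 of them, Asns, Chac1 and Trib3. It occurs in 3.97% of 32851 windows and in 4.51% of 27025 genes. The stretches below, 60 bases each, show the element or its reverse complement TTNCATCA in capitals. The same letters stand in the window of a gene that was high in knockout-labelled pachytene (Asns). They also stand in the windows of 2 genes that had next to no UMIs there.
Asns: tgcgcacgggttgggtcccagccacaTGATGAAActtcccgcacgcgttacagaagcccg
Chac1: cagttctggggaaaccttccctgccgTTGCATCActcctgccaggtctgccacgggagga
Trib3: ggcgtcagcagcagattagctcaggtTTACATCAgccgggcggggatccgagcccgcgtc

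The stretch of Asns is chr6:7693199-7693258 on the minus strand, with the element starting 23 bases before the RefSeq start. That of Chac1 is chr2:119351023-119351082 on the plus strand, with the element starting 193 bases before the RefSeq start. That of Trib3 is chr2:152344013-152344072 on the minus strand, with the element starting at base 15 of the RefSeq transcript. For Asns and Trib3 the RefSeq start differs from that of the gene model given above. By those models the element of Asns lies inside the gene and that of Trib3 before it. The windows of Atf4, Atf5, Ddit3, Psat1 and Phgdh did not hold these letters. Those of Psat1 lie inside the longer gene model whose coordinates are given above, and the start of that model was not searched. A match is a match of letters and not a bound site.

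Wider lists of the same biology were then read in mP and lP, by how many genes of at least 10 CPM were at least 2-fold apart. Amounts below are relative to total UMIs. Scaling by the median of ratios moves every log2 ratio by -0.15 in mP and -0.11 in lP, and counting UMIs per cell moves it by 1.28 and 1.32. The lists share some genes, such as Mthfd2. The percentages of all tested genes given above (15.0% higher and 10.6% lower in mP, 17.4% and 14.3% in lP) apply to each count.

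Of the eIF2alpha kinases and their regulators, 1 of 11 in mP and 1 of 10 in lP was at least 2-fold higher in knockout-labelled cells and 0 lower, with list medians of 0.47 and 0.50. The gene was Eif2b3, a subunit of the eIF2 exchange factor, at 106.6 CPM in knockout-labelled mP against 30.9 CPM in WT. Eif2ak4, the amino acid sensor GCN2, had 2.05 CPM in knockout-labelled mP against 1.95 CPM in WT, and 0.725 against 1.88 CPM in lP, a log2 ratio of -1.40 (-2.29 to -0.39). Eif2ak3, which encodes the kinase PERK of the endoplasmic reticulum (ER), had 281 UMIs in knockout-labelled mP and 0 in WT, at a level of 5.76 CPM. The interval of its log2 ratio there has a lower bound of 3.91. In lP it had 226 UMIs in knockout-labelled cells and 0 in WT, with a lower bound of 3.37. Eif2ak2, the kinase PKR, had 1.00 CPM in knockout-labelled lP against 2.88 CPM in WT, a log2 ratio of -1.54 (-2.27 to -0.74). In mP its log2 ratio was -0.19 (-0.95 to 0.72). Counting UMIs per cell takes away most of the lP differences of Eif2ak4 and Eif2ak2. The 3 kinases Eif2ak4, Eif2ak3 and Eif2ak2 are below 10 CPM and enter no count.

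Among the bZIP partners and regulators of ATF4, 0 of 3 genes of at least 10 CPM were 2-fold apart in mP, and 2 of 5 were higher in lP. These were Cebpb, with 26.4 CPM in knockout-labelled lP against 0.251 CPM in WT, and Cebpd, with 21.4 CPM against 1.00 CPM. The log2 ratio of Cebpb was 6.40 (4.86 to 9.76). Both were also higher in mP but under 10 CPM, Cebpb with 3.38 CPM in knockout-labelled cells against 0.206 CPM in WT, a log2 ratio of 3.72 (2.16 to 7.10), and Cebpd with 6.99 against 0.309 CPM. Cebpg, another dimer partner of ATF4, had 99.4 CPM in knockout-labelled mP against 138.7 CPM in WT, a log2 ratio of -0.48 whose direction reverses per cell. Atf3, a stress-induced member of the family, had 11 UMIs in knockout-labelled mP and 4 in lP, and 0 in WT in both.

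Other ATF4 target genes were split, with 2 of 9 higher and 1 lower in both stages, and list medians of 0.08 and 0.21. Mthfd2, a mitochondrial folate enzyme, had 272.0 CPM in knockout-labelled mP against 53.2 CPM in WT, a log2 ratio of 2.35 (2.23 to 2.48), and 232.9 against 49.0 CPM in lP. Vldlr, a lipoprotein receptor, had 14.0 CPM in knockout-labelled mP against 0.206 CPM in WT, and 44.1 against 0.125 CPM in lP. Sqstm1, the autophagy receptor p62, was lower, with 5.98 CPM in knockout-labelled mP against 14.5 CPM in WT. Its log2 ratio of -1.28 lies at 0 per cell.

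In mP and in lP, 5 of the 21 listed amino acid transporters reached 10 CPM. Of these, 2 of 5 in mP and 3 of 5 in lP were at least 2-fold higher and 0 lower, with medians of 0.98 and 1.18. Slc38a2, the sodium-coupled transporter SNAT2, had 20.9 CPM in knockout-labelled mP against 1.34 CPM in WT, and 19.9 against 0.376 CPM in lP. Slc7a6 had 82.3 CPM in knockout-labelled mP against 19.5 CPM in WT. Slc7a1, a carrier of cationic amino acids, had 24.6 CPM in knockout-labelled lP against 10.8 CPM in WT. Among the transporters under 10 CPM some were lower and some higher. Slc7a5, the carrier LAT1 of large neutral amino acids, had 3.36 CPM in knockout-labelled mP against 9.98 CPM in WT, a log2 ratio of -1.57 (-1.94 to -1.19). Slc1a3, a glutamate and aspartate transporter, had 0.369 against 5.97 CPM, a log2 ratio of -3.99 (-4.87 to -3.23), and Slc7a2 had 0.533 against 1.95 CPM. Slc1a1 was higher, with 50 UMIs in knockout-labelled mP and 0 in WT, and 66 and 0 UMIs in lP. These transporters under 10 CPM were picked after their values were seen.

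The 20 listed aminoacyl-tRNA synthetases, the enzymes that load amino acids on tRNA, all reached 10 CPM. At least 2-fold higher were 3 in mP (15.0% of all tested genes) and 7 in lP (17.4%), and 0 were lower. Under scaling by the median of ratios, 3 were higher and 1 lower in mP, and 5 higher and 0 lower in lP. Ratios were above 0 for 18 in mP and 19 in lP, and for 17 and 16 under scaling by the median of ratios. The list summed to 1399 CPM in knockout-labelled mP against 811 CPM in WT, with a median log2 ratio of 0.61, and to 1341 CPM in knockout-labelled lP against 653 CPM in WT, with a median of 0.75. Gars (glycine) had 172.4 CPM in knockout-labelled lP against 29.6 CPM in WT, Mars (methionine) 77.4 against 15.5 CPM, and Eprs (glutamate and proline) 321.9 against 90.6 CPM. Nars, the synthetase for asparagine, had 26.5 CPM in knockout-labelled mP against 22.2 CPM in WT and 19.6 against 18.5 CPM in lP, so the synthetase that uses the product of ASNS was among the least different.

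Enzymes around asparagine, aspartate and glutamine were at least 2-fold higher in 4 of 7 in mP and 0 were lower, a count of 2 under scaling by the median of ratios. In lP 5 of 7 were higher and 1 lower, or 4 and 1 under that scaling. Cad, which uses glutamine and aspartate for pyrimidine synthesis, had 31.9 CPM in knockout-labelled mP against 2.88 CPM in WT, and 28.4 against 1.13 CPM in lP. Glud1, glutamate dehydrogenase, had 17.3 CPM in knockout-labelled mP against 7.82 CPM in WT. Asl, argininosuccinate lyase, was the gene lower in lP, with 5.53 CPM in knockout-labelled cells against 15.5 CPM in WT, a log2 ratio of -1.49.

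Of the serine, glycine and one-carbon enzymes, 3 of 7 in mP and 4 of 8 in lP were at least 2-fold higher, and 0 and 1 lower. Under scaling by the median of ratios, 3 of 8 were higher in lP. Mthfd2, described above, is also in this list. Mthfd2l, the related folate enzyme, had 31.1 CPM in knockout-labelled mP against 12.2 CPM in WT. Gldc, of the glycine cleavage system, was lower in lP with 2.41 CPM in knockout-labelled cells against 10.7 CPM in WT.

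The ER unfolded protein response, another input to ATF4, had 0 of 18 genes at least 2-fold higher in either stage. It had 0 lower in mP and 1 in lP, Pdia6, an ER folding enzyme, with 59.6 CPM in knockout-labelled lP against 172.5 CPM in WT. The medians were 0.18 and 0.23, near those of all tested genes. Under 10 CPM, 2 genes of this list were far apart in opposite directions. In mP, Ern1 had a log2 ratio of 3.12 (1.76 to 5.63), from 3 WT UMIs. Xbp1 had 0.717 CPM in knockout-labelled mP against 8.13 CPM in WT, a log2 ratio of -3.49 (-4.12 to -2.91). Mitochondrial chaperones and proteases had 1 of 6 higher and 1 lower in both stages. The chaperonin Hspd1 had 63.4 CPM in knockout-labelled mP against 8.44 CPM in WT, and the protease Clpp 22.4 against 50.3 CPM, a log2 ratio of -1.17 that reverses per cell.

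Glutathione enzymes related to Chac1 had list medians below 0 relative to total UMIs, -0.38 in mP and -0.94 in lP, which turn positive per cell (0.90 and 0.38). Chac2, a relative of Chac1, had 3.91 CPM in knockout-labelled mP against 12.2 CPM in WT, a log2 ratio of -1.65. Gpx4, a glutathione peroxidase abundant in spermatids, had 1767 CPM in knockout-labelled lP against 3568 CPM in WT, a log2 ratio of -1.01 that reverses per cell.

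**Figure D4:**
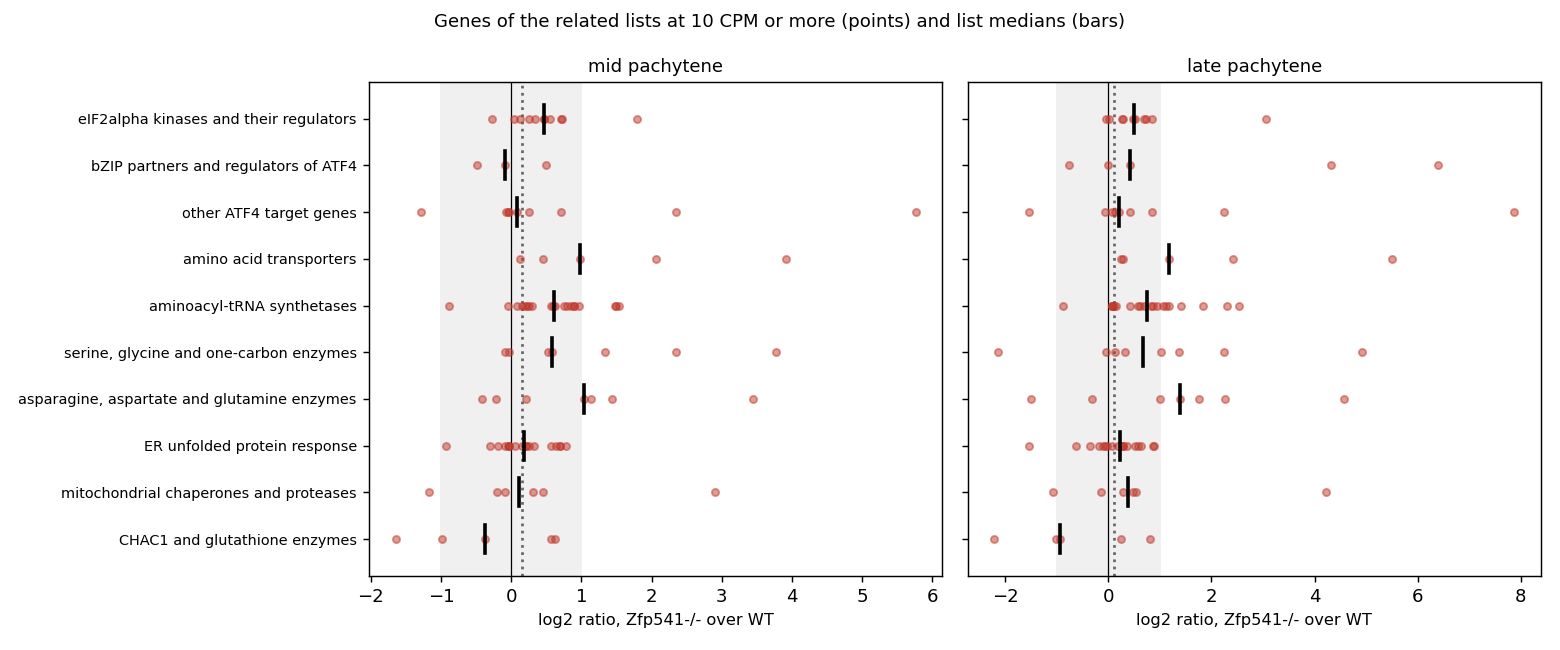
Log2 ratio of the knockout-labelled to the WT library relative to total UMIs (horizontal axis) for genes reaching 10 CPM in 10 related lists (vertical axis), in mid and late pachytene. Points are genes, bars are list medians, the dotted line is the median of all tested genes and the grey band spans ratios under 2-fold. Medians are 0.61 and 0.75 for aminoacyl-tRNA synthetases and 0.18 and 0.23 for the ER unfolded protein response; points left of 0 in the band would lie right of 0 per cell.

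The lists were also read in the eP clusters. Of the aminoacyl-tRNA synthetases 5 of 20 in cluster 12 and 6 of 20 in cluster 16 were at least 2-fold higher in knockout-labelled cells (14.4% and 20.4% of all tested genes), with medians of 0.59 and 0.60, and 0 were lower. Of the ER genes 0 of 19 were at least 2-fold apart in cluster 12. WT had 75 cells in cluster 12 and 155 in cluster 16, so single genes of these lists are not resolved there.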

How the data were processed

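Per the labels' protocols, adult C57BL/6 testes were dissociated, tetraploid germ cells were sorted by flow cytometry, and 10x Chromium 3′ libraries (kit version 3) were sequenced, 1 library for Zfp541-/- and 1 for WT. The tools were Seurat 3.2.0 and Cell Ranger 3.1.0 with the mm10 genome, per the submitters' processing notes. The deposited matrices hold whole-number UMI counts per gene and barcode, with no normalisation and at least 500 UMIs per barcode. A table of the authors lists, per the file headers, each annotated cell's total count, percent of mitochondrial UMIs, cluster, stage and pseudotime score, a whole-number order whose making is not stated. It covers 17253 cells in 25 clusters. Gene positions come from GENCODE M21 on GRCm38, and promoter sequences from RefSeq on GRCm38.p6.

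UMIs were summed per stage or cluster and library and scaled to CPM. Log2 ratios added 0.5 counts to each sum. A gene was counted as apart at 2-fold and 10 CPM in the higher library. Intervals are at 95% and cover counting error only. No doublet caller was run. Cells above 2 times the median UMIs of their stage and library were left out as an alternative, as were cells with shared barcodes, both chosen after seeing the data. The intervals and ratios were tested on simulated data. Every member is named in each comparison. From each list of related genes the text names up to 3 with the highest and 2 with the lowest ratios among those counted as apart, and always Eif2ak4, Eif2ak3, Cebpb, Cebpg and Atf3. Sqstm1, Slc7a1, Asl, Gldc, Pdia6 and Gpx4 are given in a stage in which the rule named them, or beside it. Some genes that the rule names are not reported here. Nars, Eif2ak2, Slc7a5, Slc1a3, Slc7a2, Slc1a1, Ern1 and Xbp1 are named in addition, chosen after their values were seen. The members and lists were chosen with earlier results of these data known. Python 3.11.15, numpy 2.4.6, scipy 1.17.1, pandas 2.3.3 and matplotlib 3.10.9 were used.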

Additional observations from a re-analysis of the deposited data

Results flagged for a closer look

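Barcodes outside the authors' cell table, 2747 in the library labelled Zfp541-/- and 4219 in WT, were used in no comparison, and 4 genes had more signal there in the library labelled Zfp541-/- than in WT, beyond counting error. Atf4 had 78.25 CPM in the library labelled Zfp541-/- against 38.0 CPM in WT. Psat1 had 21.94 against 1.31 CPM, and Phgdh 14.88 against 2.27 CPM. Trib3 had 0.565 CPM, from 6 UMIs, against 0 UMIs in WT. Asns and Ddit3 ran the other way there, Asns with 16.5 CPM in the library labelled Zfp541-/- and 29.4 CPM in WT, and Ddit3 with 78.2 and 223.4 CPM. The stages of these barcodes are not given.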

How the results depend on the processing

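No paired analysis was possible because each genotype has 1 library. The log2 ratio of Asns kept its direction under all alternatives, between 3.33 and 5.04 in mP and between 3.21 and 5.71 in lP, and its largest value in mP, 5.04, came from UMIs per cell without scaling. That setting reversed Atf4 (0.99 in mP and 0.87 in lP) and Ddit3 (0.65 in mP and 0.64 in lP). Of the ratios of members other than Asns under an alternative, 99 stayed within the counting interval in their direction, 7 left it and 4 reversed. Psat1 ranged from 1.72 to 3.45 in mP and from 1.41 to 3.62 in lP. In mP, 0 members were at least 2-fold higher at a minimum of 50 CPM and 2 with no minimum level, with 2 lower. In lP, 3 were higher and 1 lower with no minimum level, since more genes are then tested. In cells between the median depths of the libraries, Atf4 in mP was at -0.03. Leaving out cells with shared barcodes gave 3.76 in mP and 4.38 in lP for Asns, and leaving out cells above 2 times the median UMIs gave 3.86 and 4.33. Depth limits the low genes: Psat1, Atf5 and Phgdh rest on 6 to 11 WT UMIs in mP and lP.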
